A study of Mus musculus with 11 samples.

Results

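The 8 genes described here encode the subunits of the nuclear methyltransferase that places N6-methyladenosine (m6A) in messenger RNA: Mettl3, Mettl14, Wtap, Virma, Zc3h13, Cbll1, Rbm15 and Rbm15b. The rule that picks them uses gene symbols and no measured value, although it was set with earlier results of these data known, and all 8 were found, once each, among the 53947 genes of the deposited table. Messenger RNA was sequenced from alphaTC1-6 cells, a glucagon-producing line derived from mouse pancreatic islet alpha cells and grown as 1 immortalised culture line. The 11 libraries came from 3 scramble controls, 4 samples with METTL3 knocked down (Mettl3 KD) and 4 with METTL14 knocked down (Mettl14 KD), each collected 72 h after reverse transfection, in which cells are transfected as they are plated. The labels give reverse transfection at 70% confluency for all 3 groups, scramble included. The labels used here do not give the kind of knockdown reagent and name no separate cultures or clones. Each value is from bulk RNA, in which fewer cells of a type and less RNA per cell cannot be told apart.

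The writer complex works as a catalytic core with an assembly of helper proteins around it. Mettl3 holds the methyltransferase site and takes the methyl group from S-adenosylmethionine, SAM, while Mettl14 is its catalytically inactive partner, which holds the pair together and helps to bind RNA. Wtap docks this pair in nuclear speckles, Virma is the large scaffold, Zc3h13 bridges Wtap to the RNA-binding proteins, Cbll1 (also called Hakai) is a RING-type E3 ubiquitin ligase, and the paralogs Rbm15 and Rbm15b bind RNA and bring the complex to its targets. m6A is placed mostly near stop codons and in long internal exons, and it shortens the life of many transcripts. The design asks what losing either core subunit does to the transcripts of the alpha cell line, and here the question is what happened to the messages of the complex itself.

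Levels are in CPM, a gene's share of the library's counts on a common total, after TMM scaling, which corrects for differences in library composition. Library totals ran from 19576632 to 22406527 counts, and the members had between 112 and 2245 counts in a library. For a single library at a member's group mean count, counting error alone gives a coefficient of variation of 2.15% to 9.15%. The alpha cell label was borne out by Gcg, which encodes glucagon, at 28740 to 38730 CPM, while Gc, another alpha cell marker, was at 0 in all libraries. Of the 16 markers of beta, delta, PP and acinar cells, Pdx1, Ppy, Prss2 and Ptf1a were at 0 in all libraries, Ins1, Ins2, Sst and Cel were at 0.144 CPM or less, and those above 1 CPM in any library were Nkx6-1 (up to 71.9 CPM), Cela1 (up to 10.96 CPM) and Iapp (up to 1.11 CPM). Scramble replicate 2 stood apart: 8 lung and blood transcripts summed to 109 CPM there and to 1.94 to 5.43 CPM in the other libraries, and 6 mesenchymal, endothelial and immune transcripts to 21.5 CPM against 2.25 to 5.37 CPM. The lung and blood list was already known, from earlier results of these data, to move in a single library, so its sum there is a description. None of these lists holds a writer subunit. The part of that library in each result was measured by leaving it out, and those values stand beside the described genes whose call it changed. Other fold changes also moved in size without it, and not all of those values are given.

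In scramble cells the members' transcript levels differed several-fold when divided by transcript length. Taking the longest principal transcript of each gene in the GENCODE M21 annotation, Wtap had the highest level, at 39.4 ± 0.260 CPM per kb (SD, n = 3), followed by Rbm15b at 15.5 ± 0.460 and the scaffold Virma at 12.7 ± 0.290. Rbm15 came next at 10.1 ± 0.290, then the core pair, Mettl14 at 9.20 ± 0.619 and Mettl3 at 7.36 ± 0.505 CPM per kb, and last Cbll1 at 6.43 ± 0.146 and Zc3h13 at 6.09 ± 0.734. Only the last 2 neighbours in this order, Cbll1 and Zc3h13, lay within 1 SD of each other. The catalytic core was thus less abundant per length than Wtap, Virma and the Rbm15 pair in these control cells. The order rests on the length used, since the annotation lists shorter and longer coding forms: Mettl14 would be at 3.50 CPM per kb with its longest coding transcript, and Mettl3 at 38.0 with its shortest. Mettl3 has 15 annotated transcripts, of which 6 are marked for nonsense-mediated decay and 5 as retained introns, and the gene counts do not separate these from the 4 coding ones.

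Each targeted transcript was lower in its own knockdown, the Mettl3 transcript by more than the Mettl14 transcript. Mettl3 was at 14, 14.7 and 16.02 CPM in the 3 scramble libraries, at 5.06, 5.01, 5.98 and 5.30 CPM in Mettl3 KD, and at 15.9, 14.2, 16.5 and 15.0 CPM in Mettl14 KD. The Mettl3 KD libraries lay far below all others, and the Mettl14 KD libraries overlapped scramble. By edgeR's quasi-likelihood test across all genes, 35.8% of the scramble level of Mettl3 remained in Mettl3 KD, with a 95% interval of 31.75% to 40.4% (log2 fold change -1.48 ± 0.08 (SE), adjusted p = 6.86e-11). Mettl14 was at 25.4, 23.4 and 26.8 CPM in scramble, at 14.9, 14.2, 15.5 and 13.9 CPM in Mettl14 KD, and at 29.1, 30.5, 29.7 and 28.1 CPM in Mettl3 KD. All 4 Mettl14 KD libraries were below scramble, and all 4 Mettl3 KD libraries were above it. Of the scramble level of Mettl14, 58.1% remained in Mettl14 KD, with an interval of 53.3% to 63.3% (log2 fold change -0.78 ± 0.06, adjusted p = 8.78e-09 by edgeR). The knocked-down transcripts were not the most changed of the transcriptome: 15 genes that passed the test fell further than Mettl3 in Mettl3 KD, and 137 fell further than Mettl14 in Mettl14 KD.

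**Figure D1:**
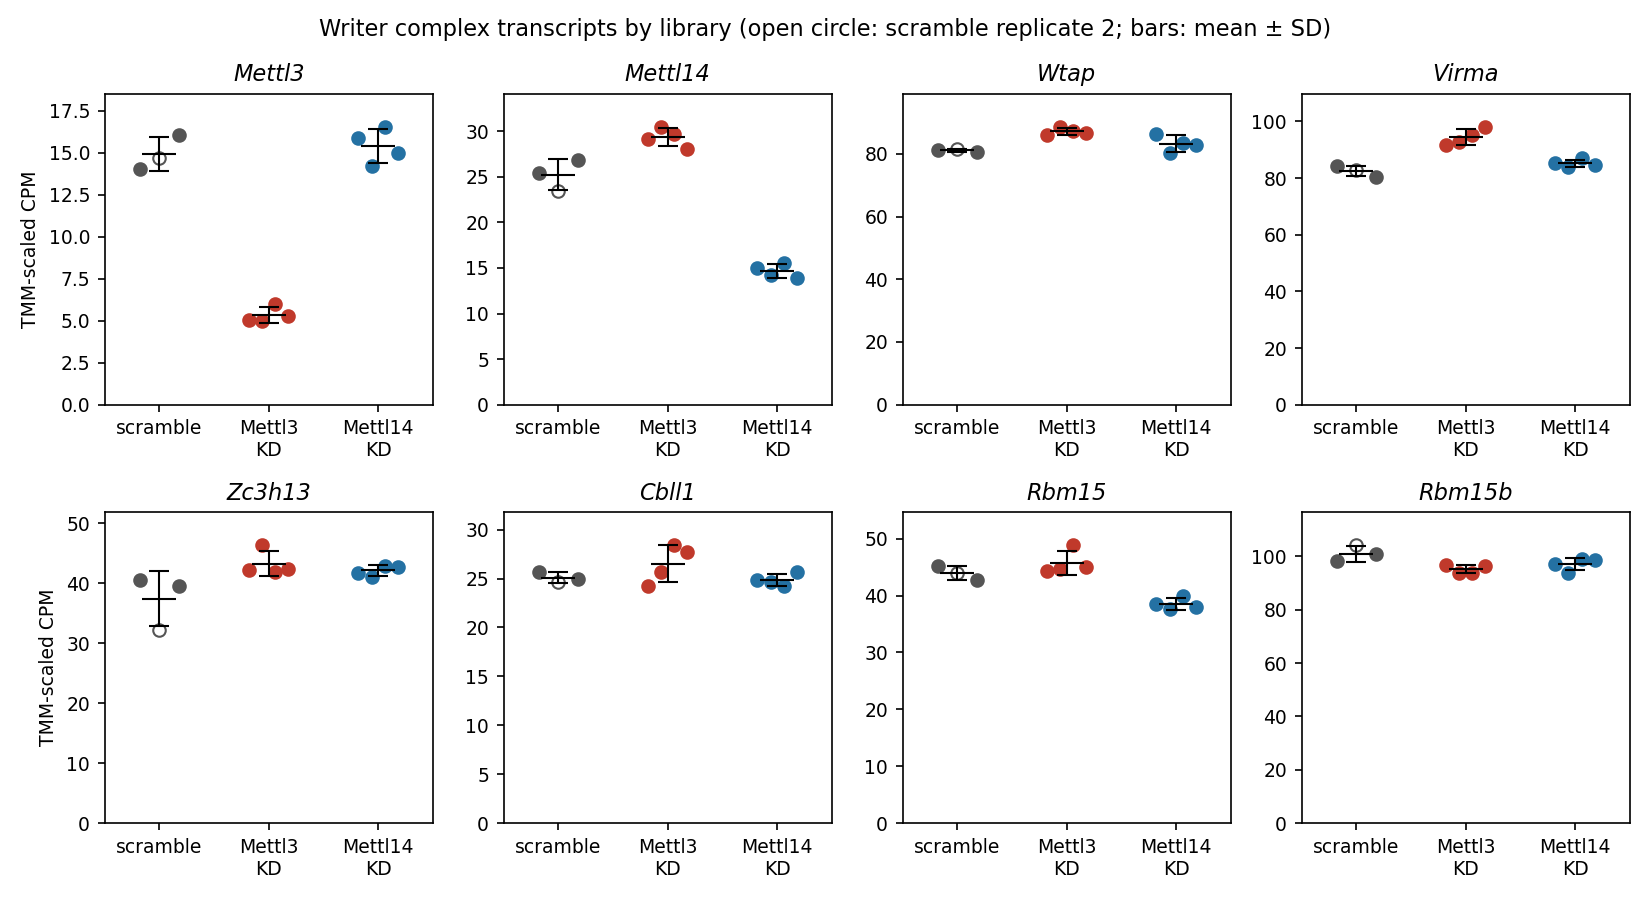
TMM-scaled CPM (vertical axes, each starting at 0) of the 8 writer complex genes in each library, by group, with bars for the mean ± SD and an open circle for scramble replicate 2. Mettl3 falls to 5.01 to 5.98 CPM in Mettl3 KD, Mettl14 to 13.9 to 15.5 CPM in Mettl14 KD, and the other genes move by much smaller amounts, with Zc3h13 lowest in scramble replicate 2.

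With Mettl3 knocked down, Mettl3 fell, 4 of the 7 other members rose, and 3 did not pass the test. Mettl14, Virma, Wtap and Zc3h13 rose by 1.07 to 1.16 times. For scale, 15.5% of all 14133 genes tested were called higher and 15.8% lower in this comparison (31.3% in either direction), and the median log2 fold change was 0.09 over the 8 members against -0.004 over all genes. The groups did not overlap for 6 of the 8 members, 4 of them higher and 2 lower in Mettl3 KD, against 35.5% of all genes (17.5% higher and 17.9% lower). The 2 lower include Mettl3, the target, whose fall the knockdown itself set.

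Mettl14, the partner of the depleted subunit, was at 29.3 ± 1.02 CPM in Mettl3 KD (SD, n = 4) against 25.2 ± 1.70 CPM in scramble (n = 3). Its log2 fold change was 0.22 ± 0.06 with a 95% interval of 0.10 to 0.33 (adjusted p = 0.00494 by edgeR), a level 116% of scramble. The call held with each of the 11 libraries left out in turn, with log2 fold changes of 0.17 to 0.27, the lowest being without scramble replicate 2.

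Virma, the scaffold, was at 84.1, 82.8 and 80.4 CPM in scramble and at 91.7, 92.8, 95.04 and 98.1 CPM in Mettl3 KD. All 4 knockdown libraries were above all scramble libraries, and the log2 fold change of 0.20 ± 0.03 (interval 0.12 to 0.27) had adjusted p = 0.000201 by edgeR. After Mettl3 itself this was the smallest adjusted p among the members here. It was also stable when single libraries were left out, at 0.18 to 0.21.

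Wtap, which docks the core pair, was at 81.2, 81.7 and 80.6 CPM in scramble and at 86.1, 88.6, 87.1 and 86.8 CPM in Mettl3 KD. Libraries of each group lay close together and the groups did not overlap. The log2 fold change was only 0.10 ± 0.03 (interval 0.03 to 0.17) and passed, with adjusted p = 0.0248 by edgeR. The call ended without scramble replicate 1 (0.10, adjusted p = 0.0537) and without Mettl3 KD replicate 2 (0.10, adjusted p = 0.0618).

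Zc3h13, the bridge between Wtap and the RNA-binding subunits, was at 40.5, 32.2 and 39.5 CPM in scramble and at 42.2, 46.3, 41.9 and 42.4 CPM in Mettl3 KD. Scramble replicate 2, the library with the lung and blood transcripts, was the low one, and the other scramble libraries lay just under the knockdown libraries. The log2 fold change was 0.20 ± 0.06 (interval 0.08 to 0.33, adjusted p = 0.0164 by edgeR). Without scramble replicate 2 it was 0.11 ± 0.05 and did not pass (adjusted p = 0.0744), and without Mettl3 KD replicate 2, the highest library, it was 0.17 ± 0.06 (adjusted p = 0.0565). Leaving out Mettl3 KD replicate 2 therefore ended the calls of both Wtap and Zc3h13 and brought the members called from 5 to 3.

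The remaining members did not pass. Cbll1, the ubiquitin ligase, ranged from 24.6 to 25.7 CPM in scramble and from 24.3 to 28.4 CPM in Mettl3 KD, with a log2 fold change of 0.08 and an interval of -0.04 to 0.20 (adjusted p = 0.295 by edgeR). Rbm15 ranged from 42.7 to 45.2 and from 44.3 to 48.8 CPM, at 0.06 with an interval of -0.04 to 0.15 (adjusted p = 0.359). Neither interval extends past 0.20 in either direction. Its paralog Rbm15b was at 98.1, 104 and 101 CPM in scramble and at 96.6, 93.9, 93.7 and 96.2 CPM in Mettl3 KD, so that the groups did not overlap, but the log2 fold change of -0.09 (interval -0.16 to -0.02) had adjusted p = 0.0569. Without scramble replicate 2 it was at -0.06 (adjusted p = 0.171), and by DESeq2 at -0.08 (adjusted p = 0.101). It passed without scramble replicate 1 (-0.11, adjusted p = 0.0351), and at -0.09 with upper quartile scaling (adjusted p = 0.0497) or a minimum count of 50 (adjusted p = 0.0301).

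**Figure D2:**
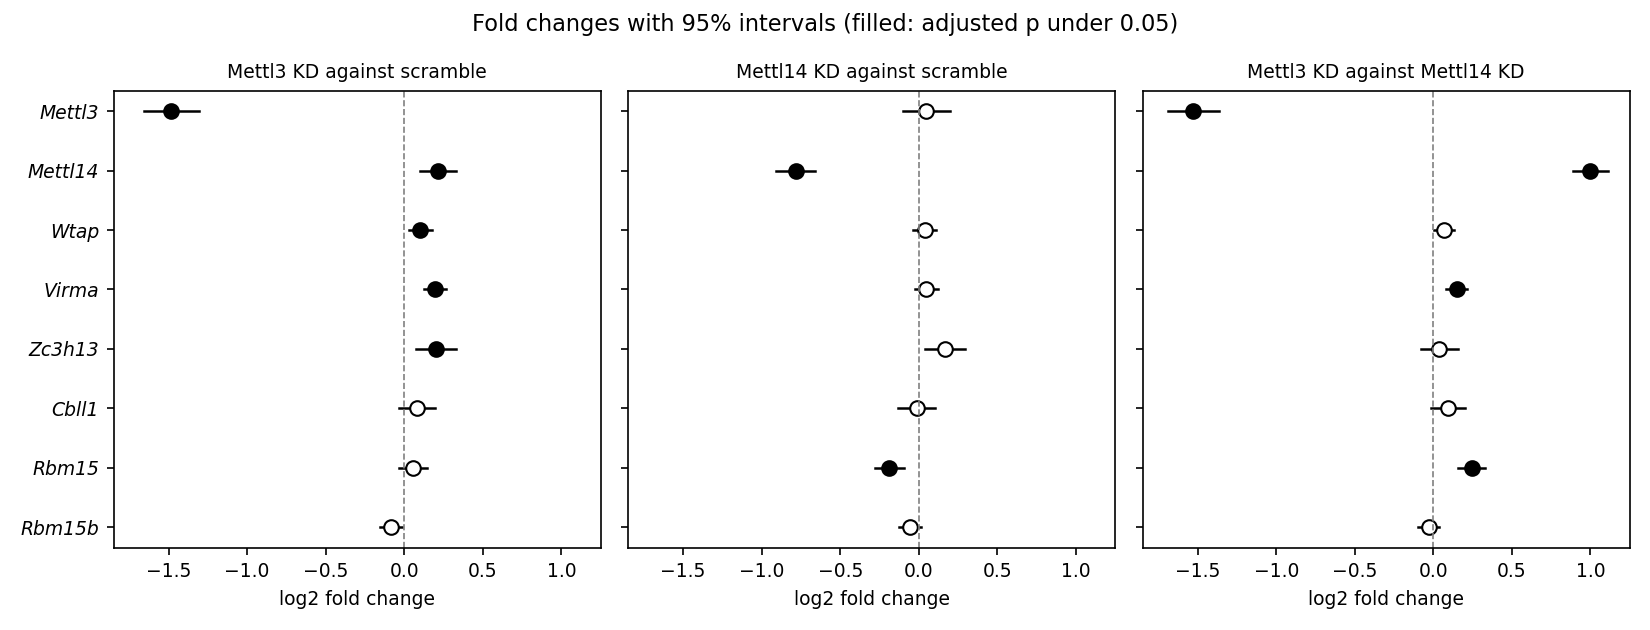
Log2 fold changes (horizontal axes) of the 8 members in the 3 comparisons, with 95% intervals as lines and filled points for an adjusted p under 0.05. In Mettl3 KD 4 members lie above 0 as filled points and Mettl3 at -1.48, in Mettl14 KD the filled points are Mettl14 at -0.78 and Rbm15 at -0.19, and between the knockdowns Virma and Rbm15 are filled beside the targets.

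With Mettl14 knocked down, 2 of the 8 members fell, Mettl14 and Rbm15, and 6 did not pass. For scale, 20.9% of all genes tested were called in this comparison (10.1% higher and 10.8% lower). The groups did not overlap for 3 of 8 members, 1 higher and 2 lower in Mettl14 KD, against 28.9% of all genes (14.4% higher and 14.6% lower). Mettl14, the target, is in both member counts, and its fall was set by the knockdown itself. The members' median log2 fold change was 0.01, against 0.0003 over all genes. Of the members, 0 rose by edgeR's test, Zc3h13 was the 1 higher member below 0.05 before adjustment, and DESeq2 and limma-voom likewise called 0 higher, each with 1 before adjustment. Both knockdowns are set against the same scramble libraries, so the 2 sets of fold changes are not independent.

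Rbm15, which binds RNA and recruits the complex, was at 45.2, 43.9 and 42.7 CPM in scramble and at 38.6, 37.7, 40.0 and 38.0 CPM in Mettl14 KD. All 4 Mettl14 KD libraries were below all scramble libraries, at 87.8% of the scramble level (interval 82.3% to 93.6%). The log2 fold change was -0.19 ± 0.04 with adjusted p = 0.00469 by edgeR, and it passed with any single library left out, at -0.21 to -0.17. Rbm15b, at 97.2, 93.8, 99.0 and 98.6 CPM, overlapped scramble and did not pass, at -0.06 with an interval of -0.13 to 0.01 (adjusted p = 0.264).

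Zc3h13 was at 41.7, 41.1, 42.9 and 42.8 CPM in Mettl14 KD, above all 3 scramble libraries, but its log2 fold change of 0.17 (interval 0.04 to 0.30) did not pass, with adjusted p = 0.0616 by edgeR. This value again turned on the scramble libraries: it was 0.07 (adjusted p = 0.309) without scramble replicate 2, and it passed without scramble replicate 1 (0.23, adjusted p = 0.0169), without scramble replicate 3 (0.21, adjusted p = 0.0433) or with no filter on low counts (0.17, adjusted p = 0.00560). Virma, at 84.1 to 87.0 CPM, and Wtap, at 80.1 to 86.5 CPM, overlapped scramble, with intervals of -0.02 to 0.12 and -0.03 to 0.11. Mettl3, the catalytic subunit, was at 0.05 with an interval of -0.10 to 0.20 (adjusted p = 0.692), and Cbll1 at -0.01 with an interval of -0.13 to 0.10 (adjusted p = 0.898).

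The direct comparison of the knockdowns uses no scramble library for its means and tests whether the subunit messages responded differently. Its estimate of spread, however, comes from all 3 groups, scramble replicate 2 included. In Mettl3 KD against Mettl14 KD, 3 of the 8 members were higher, 1 was lower and 4 did not pass. Of all genes, 3.66% were called higher and 4.44% lower (8.1% in either direction, 1145 of 14133). All genes called were 2187 of 13635 with only these 2 groups fitted and 2125 of 14316 without scramble replicate 2, with 4 members called in each. The groups did not overlap for 4 of the 8, 3 higher and 1 lower in Mettl3 KD, against 17.6% of all genes (8.43% higher and 9.21% lower). The members called and those without overlap both include the targets Mettl3 and Mettl14, whose differences the knockdowns themselves set. Besides the targets, which differed by -1.53 ± 0.08 for Mettl3 and 1 ± 0.05 for Mettl14 on the log2 scale, the higher members were Rbm15 and Virma. Rbm15 was higher by 0.24 ± 0.04 (interval 0.16 to 0.33, adjusted p = 0.000649 by edgeR) and Virma by 0.15 ± 0.03 (interval 0.08 to 0.21, adjusted p = 0.00573). For both, all 4 Mettl3 KD libraries were above all 4 Mettl14 KD libraries, and the calls held without any single library, with adjusted p up to 0.00450 and up to 0.0333. Wtap differed by 0.07 (interval 0.001 to 0.13, adjusted p = 0.218), Cbll1 by 0.09 (interval -0.01 to 0.20), Zc3h13 by 0.04 (interval -0.08 to 0.15) and Rbm15b by -0.03 (interval -0.10 to 0.03), and none of these passed. A different response of these last 4 to the knockdowns was therefore not detected.

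The balance of the 2 core messages lay on opposite sides of scramble in the 2 knockdowns. That direction follows from the fall of each target, in the numerator or the denominator of the ratio, and is no separate result. In Mettl3 KD both genes contribute to the size of the change, since Mettl3 fell and Mettl14 rose. Per 100 Mettl14 counts there were 55.2, 62.7 and 59.7 Mettl3 counts in the scramble libraries, 17.4, 16.4, 20.2 and 18.9 in Mettl3 KD, and 106, 99.7, 106 and 107 in Mettl14 KD. The 3 groups did not overlap, with Mettl3 KD lowest and Mettl14 KD highest. The ratio is taken within a library and so does not depend on scaling, although it is not corrected for the lengths of the transcripts. The log2 ratio was lower than in scramble by 1.70 in Mettl3 KD and higher by 0.83 in Mettl14 KD, with p = 0.0571 in each two-sided exact permutation test, the smallest that 3 against 4 libraries allow. Between the knockdowns it differed by -2.53, with p = 0.0286 in the exact test, the smallest for 4 against 4. Adjusted over the 3 exact permutation tests each had p = 0.0571, and since no adjusted p below 0.05 was possible with these numbers of libraries, the tests decide nothing and the values are a description.

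The balance of the RNA-binding paralogs also separated the knockdowns, by much less. There were 46.1, 42.2 and 42.4 Rbm15 counts per 100 Rbm15b counts in scramble, 45.9, 47.5, 52.1 and 46.8 in Mettl3 KD, and 39.7, 40.15, 40.4 and 38.6 in Mettl14 KD. The Mettl14 KD libraries were below all others, and Mettl3 KD overlapped scramble. This ratio was chosen after its members' values were seen and is given without a test.

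**Figure D3:**
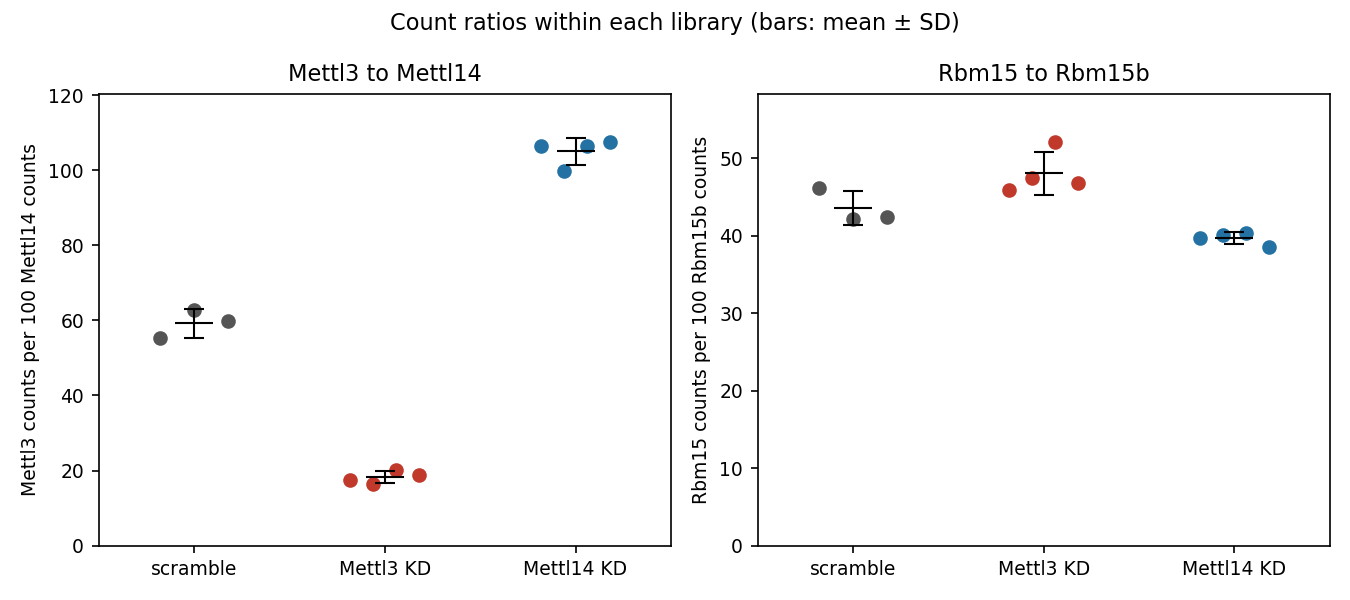
Mettl3 counts per 100 Mettl14 counts and Rbm15 counts per 100 Rbm15b counts in each library (vertical axes starting at 0), by group, with bars for the mean ± SD. The Mettl3 to Mettl14 ratio is 59.2 ± 3.78 in scramble, 18.2 ± 1.65 in Mettl3 KD and 105 ± 3.57 in Mettl14 KD, and the Rbm15 to Rbm15b ratio is 43.6 ± 2.20, 48.1 ± 2.77 and 39.7 ± 0.816.

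The spread of the subunit messages between libraries of a group differed widely by gene and group. Over the 24 combinations of member and group, the coefficient of variation ran from 0.660% for Wtap in scramble to 12.1% for Zc3h13 in scramble. In 13 of the 24 it was below the value for counting error alone. Each rests on 3 or 4 libraries and is imprecise, and no difference in spread was tested. The wide value of Zc3h13 comes with its low level in scramble replicate 2, and the same gene varied by 2.08% in Mettl14 KD.

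Promoter sequence is shown for the members other than the 2 targets that changed and have an entry in the RefSeq table of GRCm38.p6: Wtap and Zc3h13, which rose in Mettl3 KD, and Rbm15, which fell in Mettl14 KD. The table held 6 of the 8 members, without Mettl14 and Virma, so that 2 of the 4 members that rose in Mettl3 KD could be examined. These 2, Wtap and Zc3h13, are the ones whose calls each ended in 2 of the 11 fits with a library left out. The calls of Mettl14 and Virma held in all of these fits. Each line gives the 250 bases before the first listed start, 5′ to 3′ on the gene's strand, with capitals marking a CCAAT box (CCAAT) or an ETS-type core (CCGGAAG) on either strand. Wtap lies at chr17:12992544-12992793 on the minus strand, Zc3h13 at chr14:75284116-75284365 on the plus strand and Rbm15 at chr3:107333290-107333539 on the minus strand.
Wtap: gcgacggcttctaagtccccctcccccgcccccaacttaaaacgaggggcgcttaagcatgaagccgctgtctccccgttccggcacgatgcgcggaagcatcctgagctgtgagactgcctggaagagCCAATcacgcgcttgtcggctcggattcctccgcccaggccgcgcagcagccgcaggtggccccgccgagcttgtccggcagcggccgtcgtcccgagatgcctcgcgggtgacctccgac
Zc3h13: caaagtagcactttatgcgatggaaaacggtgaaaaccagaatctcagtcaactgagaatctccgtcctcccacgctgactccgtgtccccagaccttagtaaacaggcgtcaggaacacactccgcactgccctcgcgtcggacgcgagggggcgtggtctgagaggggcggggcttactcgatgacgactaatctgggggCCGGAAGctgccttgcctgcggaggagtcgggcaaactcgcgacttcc
Rbm15: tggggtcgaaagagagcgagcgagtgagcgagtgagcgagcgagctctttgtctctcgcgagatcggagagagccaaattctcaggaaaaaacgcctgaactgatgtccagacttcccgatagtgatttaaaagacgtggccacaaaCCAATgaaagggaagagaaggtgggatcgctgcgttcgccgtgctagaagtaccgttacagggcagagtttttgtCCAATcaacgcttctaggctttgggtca
Wtap and Zc3h13 shared neither motif in these windows: Wtap has 1 CCAAT box and no ETS-type core, Zc3h13 has 1 ETS-type core and no CCAAT box, and Rbm15 has 2 CCAAT boxes. Of the 27025 genes in the table, 34.5% hold CCAAT and 7.05% hold CCGGAAG in a window of this length, and an E box (CACGTG) was found in 6.05% of genes and, among the 6 members, in Rbm15b. The shared letters are a description and say nothing of which factors bind. By base composition the windows were at 68.0% G and C for Wtap, 59.2% for Zc3h13 and 51.6% for Rbm15.

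Other genes overlap 3 of the members in the annotation, and since no source used here says how strand entered the counting, their values are set beside them. Tox4, on the opposite strand to Mettl3, averaged 45.3 ± 1.47 CPM over scramble and 47.9 ± 0.501 CPM over Mettl3 KD libraries and did not pass (log2 fold change 0.08 ± 0.04, adjusted p = 0.182 by edgeR), while Mettl3 fell. Rbm15b overlaps Dcaf1 on the opposite strand, at 89.0 ± 5.48 and 89.3 ± 0.600 CPM, and Manf on its own strand, at 291 ± 43.4 and 350 ± 10.98 CPM, neither of which passed in Mettl3 KD (adjusted p = 0.963 and adjusted p = 0.0514). The antisense gene Gm29542 at Cbll1 had a mean of 0.0167 CPM in scramble and was at 0 in both knockdowns.

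The genes whose profile over the 11 libraries was most like that of Mettl3 were Riok3, an atypical protein kinase, Nudcd1 and Slc5a3, a myo-inositol transporter, each with a Pearson correlation of 0.98 on log2 CPM among 10338 genes compared. They share the libraries with Mettl3 and, like it, had their lower values in Mettl3 KD: on the log2 scale Riok3 was at -0.48 ± 0.03 in Mettl3 KD and 0.05 ± 0.03 in Mettl14 KD, and Slc5a3 at -0.49 ± 0.05 and 0.03 ± 0.05. Most like Mettl14 were Enkd1 (0.98), the cell cycle factor E2f2 (0.95) and Mpp6 (0.94). Their log2 fold changes in Mettl3 KD were 0.06 ± 0.05 for Enkd1, 0.04 ± 0.04 for E2f2 and 0.13 ± 0.04 for Mpp6, and in Mettl14 KD they were -0.20 ± 0.05, -0.11 ± 0.04 and -0.19 ± 0.04. As these genes were picked on the same libraries, their values are a description with no test.

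Elsewhere in the m6A pathway, 36 genes in 5 lists were counted, of which 33 were tested. In Mettl3 KD 7 rose and 6 fell, 39.4% of those tested against 31.3% of all genes, with a median log2 fold change of -0.01. In Mettl14 KD 4 rose and 6 fell, 30.3% against 20.9% of all genes, with a median of 0.01. Between the knockdowns 1 was higher and 1 lower, 6.06% against 8.1%. This count went from 2 to 7 without scramble replicate 2, where all genes called went from 1145 of 14133 to 2125 of 14316. The pathway count went to 0 or 1 without another scramble library, any Mettl3 KD library or Mettl14 KD replicate 1, 2 or 4.

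Of the 2 demethylases, Alkbh5 fell in both knockdowns, from 149.5 ± 9.77 CPM to 115 ± 3.90 CPM in Mettl3 KD (log2 fold change -0.38 ± 0.04, adjusted p = 1.57e-06 by edgeR) and 112 ± 5.04 CPM in Mettl14 KD (-0.42 ± 0.04, adjusted p = 8.00e-07), and Fto did not pass. Both Alkbh5 calls held with any library left out. Of 11 m6A readers tested, 3 rose and 1 fell in Mettl3 KD, 36.4% against 31.3% of all genes. Each of these calls ended in at least 1 fit with a single library left out. In Mettl14 KD 1 reader fell, 9.09% against 20.9% of all genes. Ythdf2, which brings m6A messages to deadenylation, rose by 0.14 ± 0.04 in Mettl3 KD (adjusted p = 0.0195), a call that ended without scramble replicate 2 (0.09, adjusted p = 0.109) or Mettl3 KD replicate 3. Prrc2a fell by 0.16 ± 0.05 in Mettl3 KD (adjusted p = 0.0239) and by 0.17 ± 0.05 in Mettl14 KD (adjusted p = 0.0291). Without scramble replicate 2 Prrc2a was at -0.08 (adjusted p = 0.0478) and -0.09 (adjusted p = 0.0509), and its calls also ended without Mettl3 KD replicate 2 and without Mettl14 KD replicate 1 or 4, respectively.

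Of 6 genes of other RNA methyltransferases, 1 rose in Mettl3 KD, 16.7% against 31.3% of all genes. In Mettl14 KD 1 rose and 1 fell, 33.3% against 20.9% of all genes. Mettl16, which methylates U6 snRNA and hairpins of the SAM synthetase message, rose by 0.31 ± 0.06 in Mettl3 KD (adjusted p = 0.000507 by edgeR) and by 0.21 ± 0.06 in Mettl14 KD (adjusted p = 0.0180). Without scramble replicate 2 the second was 0.13 and did not pass (adjusted p = 0.0888). Pcif1, which methylates the cap-adjacent adenosine, fell by 0.18 ± 0.04 in Mettl14 KD (adjusted p = 0.00226). Of 5 genes of SAM supply tested, 1 rose and 1 fell in Mettl3 KD, 40% against 31.3% of all genes. In Mettl14 KD 1 of them rose, 20% against 20.9% of all genes. Mat2a, the SAM synthetase, rose from 281 ± 17.6 CPM to 314.5 ± 5.12 CPM in Mettl3 KD (adjusted p = 0.00201) and 315 ± 6.34 CPM in Mettl14 KD (adjusted p = 0.00322). Ahcyl2 fell by 0.09 ± 0.03 in Mettl3 KD (adjusted p = 0.0419), a call that ended, with adjusted p up to 0.174, when any 1 of 7 libraries was left out: replicates 1 and 3 of scramble, replicates 2, 3 and 4 of Mettl3 KD, and replicates 1 and 4 of Mettl14 KD.

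Of 9 genes reported to recruit, regulate or accompany the writer complex, 2 rose and 3 fell in each knockdown. That is 55.6% in each, against 31.3% of all genes in Mettl3 KD and 20.9% in Mettl14 KD. The same genes fell in both, while only Cebpz rose in both. Of those that fell, Spen did not pass without scramble replicate 2. There it was at -0.10 in Mettl3 KD (adjusted p = 0.154 by edgeR) and at -0.12 in Mettl14 KD (adjusted p = 0.11). Cebpz, which can bring Mettl3 to promoters, rose by 0.22 ± 0.03 in Mettl3 KD (adjusted p = 4.82e-05 by edgeR) and by 0.18 ± 0.03 in Mettl14 KD (adjusted p = 0.000892). Zfp217, a zinc finger protein that restrains Mettl3, fell by 0.27 ± 0.05 in Mettl3 KD (adjusted p = 0.000241) and by 0.14 ± 0.05 in Mettl14 KD (adjusted p = 0.0481). The second of these calls ended in 9 of the 11 fits that left out a library, with adjusted p up to 0.302, and held without scramble replicate 2 (-0.21, adjusted p = 0.000237) and without Mettl3 KD replicate 1. Smad3, a TGF-beta effector linked to the complex, fell by 0.33 ± 0.06 in Mettl14 KD (adjusted p = 0.000338) and by 0.21 ± 0.06 in Mettl3 KD (adjusted p = 0.00800). None of Cebpz, Zfp217 and Smad3 differed between the knockdowns by the test (adjusted p = 0.449, adjusted p = 0.0786 and adjusted p = 0.191), although Zfp217 did without scramble replicate 2 (-0.13, adjusted p = 0.00694).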

How the data were processed

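The deposited values are the authors' estimated counts (expected counts) for each gene and library, not scaled to a common total. Per the submitters' processing notes, kallisto was used (version not given). The authors' build, annotation and rule for adding transcripts up to genes: not given in the sources used here. Of the values, 11.6% were not whole, and all were rounded. Symbols came from the reference gene names (48651 of 53947 genes). The filterByExpr function with a minimum count of 10 kept 14133 genes, all 8 members included. The 3 groups were fitted jointly, over 11 libraries and with TMM scaling, in edgeR 4.0.16 (R 4.3.3), using its quasi-likelihood F-test, robust dispersion estimates and Benjamini-Hochberg adjustment over all genes at 0.05. Each SE was derived from the fold change and its F statistic, and 95% intervals use the test's degrees of freedom. Whether replicates came from separate cultures is not labelled, so the p-values reflect the spread between these libraries alone, and that spread may be technical. No 2 libraries of a group agreed within sampling noise (chi-square over its degrees of freedom at least 2.10). The count ratio used a pseudocount of 0.5. Alternatives were other scalings and filters, DESeq2 1.42.0, limma-voom (limma 3.58.1), fits of 2 groups, a replicate block and leaving out each library. Lengths other than that of the principal transcript were tried after the data were seen. The procedure was tested on simulated data with known changes and the same spread for all genes and libraries. No simulated library stood apart as scramble replicate 2 does, and no value from the simulation is given here. The members, lists and tests were chosen with earlier results of these data known. Named genes were the 8 members, the 2 genes of each pathway list with the smallest adjusted p among those passing in each knockdown against scramble, and the 3 genes most correlated with Mettl3 or Mettl14 among those with a mean of at least 5 CPM (log2 CPM with a prior count of 2). Overlapping genes, Gcg and other markers were named for checks, and Spen was named after its values were seen. One marker is not reported here.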

Additional observations from a re-analysis of the deposited data

Results flagged for a closer look

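In the knockdown groups of 4 libraries, 18 sets of values (the 8 members and the Mettl3 to Mettl14 ratio in each knockdown) were examined for a library far from the others, and chance alone gives about 1 such library in 20 sets. There were 3. Zc3h13 in Mettl3 KD replicate 2 was at 46.3 CPM, with a gap to the next library of 0.889 of the group's range (Dixon's test at the 95% level). Rbm15 in Mettl3 KD replicate 3 was at 48.8 CPM, with a gap of 0.853. In Mettl14 KD replicate 2 there were 99.7 Mettl3 counts per 100 Mettl14 counts, the lowest of that group, with a gap of 0.859.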

How the results depend on the processing

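The counts of members called were within 1.5 times the reported ones under each other scaling, filter, tool and 2-group fit. With single libraries left out they ran from 3 to 5 for Mettl3 KD against scramble, from 2 to 3 for Mettl14 KD against scramble, and stayed at 4 between the knockdowns. The log2 fold change of Mettl3 in Mettl3 KD ran from -1.54 to -1.42 and that of Mettl14 in Mettl14 KD from -0.83 to -0.73, all called. The Mettl3 to Mettl14 log2 ratio ran from -1.75 to -1.65, from 0.78 to 0.87 and from -2.58 to -2.48 in the 3 comparisons. The pathway genes called ran from 10 to 13, from 7 to 10 and, between the knockdowns, from 0 to 7; there DESeq2 called 0 (6 with an unadjusted p under 0.05), edgeR 2 (11) and limma-voom 5 (13). Cbll1 in Mettl14 KD, which did not pass, ran from -0.02603 without scramble replicate 2 to 0.0054 without scramble replicate 1, where it changed sign. The Wtap call in Mettl3 KD also ended with no filter on low counts (adjusted p = 0.0503), and that of Zc3h13 with only the 2 groups fitted (adjusted p = 0.0512). The cause of these changes was not tested. With the replicate block the members called were 4, 2 and 4, Wtap in Mettl3 KD being lost at 0.11 (adjusted p = 0.0532), with no other member's call changed, and all genes called were 3784, 2335 and 839 against 4420, 2956 and 1145. Same-numbered libraries had correlations of -0.118 to 0.0674 between their deviations from the group means, and 2 of 11 libraries correlated best with their own number. No pairing of the samples by number was thus detected, but with so few libraries a weak one could be missed. All genes called between the knockdowns numbered 2187 with only these 2 groups fitted, 1868 by limma-voom and 2125 without scramble replicate 2. Libraries with few Mettl3 counts, 112 to 134 in Mettl3 KD, limit the precision of its residual level.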
